A study of Oryza longistaminata with 12 samples.

Results

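The roots of *O. longistaminata* ramet pairs under split ammonium supply are described here: 3 libraries of +N split roots against 3 libraries of −N split roots, chosen by their treatment labels as 6 of the 12 root libraries of the series. *O. longistaminata* is a wild rice that spreads by rhizomes, and a ramet pair is a pair of young plants on neighbouring rhizome nodes that stay joined. The root of each ramet stood in a pot of its own for 24 h. A +N split root received 2.5 mM NH4Cl while the root of its partner received 0 mM, and a −N split root received 0 mM while the root of its partner received 2.5 mM. In the other 6 libraries, used only for contrast, both roots of a pair were treated alike, with 2.5 mM (+N, 3 libraries) or 0 mM (−N, 3 libraries). The treatment text of −N replicate 1 describes a split treatment while its title names −N, and the title was followed. All plants belong to a single wild accession and had been grown in hydroponics with ammonium as the nitrogen source before the pairs were cut out. The methods call the replicates biologically independent, but the labels do not tie a +N split library to the −N split library of its partner.

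Roots take up ammonium through AMMONIUM TRANSPORTER (AMT) proteins, and glutamine synthetase (GS) joins it to glutamate. NADH-dependent glutamate synthase (NADH-GOGAT) then passes the amide group on to 2-oxoglutarate, so that the cycle turns ammonium into glutamate at the cost of carbon skeletons, reductant and ATP, which glycolysis and the organic acid pathways supply. In plants, root genes of nitrogen uptake are known to respond both to the nitrogen around the root itself and to signals from the rest of the plant. The comparison of the sides asks how far the transcriptomes of joined roots part when ammonium is on offer on one side only.

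Between 40481909 and 45706258 reads were counted per library in the +N split roots and between 40509615 and 42516387 in the −N split roots. The authors deposited unnormalized counts on 29335 gene models, of which 25005 passed a filter on low counts. Levels are counts scaled to a common library size by TMM (CPM), in the order of replicates 1, 2 and 3, and they compare libraries, not genes. A difference is the log2 of the ratio of +N split to −N split roots with its standard error (n = 3 per group), and a gene is called at an adjusted p under 0.05 in the quasi-likelihood test of edgeR, adjusted by Benjamini and Hochberg's method over all genes tested. In whole-root RNA, a lower level can come from fewer cells of a type or from less RNA per cell, and these cannot be told apart. The median SD of a gene between replicates on the log2 scale was 0.165 in +N split and 0.163 in −N split roots. On the first principal component of all 12 libraries, which held 43.5% of the variance, the +N split libraries lay between −61.6 and −37.6 and the −N split libraries between 52.6 and 59.2. The uniform libraries lay on the same sides of 0, +N from −47.3 to −23.8 and −N from 24.2 to 44.2.

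The sides of split pairs differed in 8084 genes, 32.3% of all genes tested, with 3892 higher (15.6%) and 4192 lower (16.8%) in +N split roots. The counts were of like size in both directions, but large changes were mostly rises. A change of at least 2-fold was found in 2315 genes, 9.26% of those tested, of which 1554 were higher and 761 lower in +N split roots. At least 4-fold, there were 521 higher and 81 lower genes, and at least 8-fold 204 higher and 13 lower. The libraries of the sides did not overlap in 11744 genes, 47.0% of those tested, and in 7909 of the 8084 genes called. Where both roots of a pair were treated alike, 4798 genes (19.2%) differed between +N and −N in the same fit, 2587 higher (10.3%) and 2211 lower (8.84%) in +N.

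The difference between the sides was then compared with that between uniform pairs, with which it shares no library. Of the 4798 genes called between +N and −N, 4238 had the same sign between the sides of split pairs and 3004 were called there in the same direction, which is 62.6% of the uniform calls and 37.2% of the split calls. Another 131 were called in opposite directions. Across the 25005 genes, the log2 differences of the contrasts had a Pearson r of 0.493 and a Spearman rho of 0.524, given as a description since genes are not independent replicates and the libraries of each contrast share their own noise. Genes chosen in the study as higher in +N than in −N, a choice that used no split library, were mostly higher in +N split roots too. Of the 1998 of them read here, 1170 were higher and 31 lower, with a median log2 difference of 0.71. Of the 991 genes read from the opposite table, higher in −N than in +N, 669 were lower and 45 higher in +N split roots, with a median of −0.66. The gene lists below draw on these tables, so that their counts stand beside these shares of whole tables and not only beside those of all genes tested. Further members come only from tables chosen on split libraries. Those read here hold genes higher in +N split than in +N roots, or higher in +N than in −N split roots. That choice favours a call of higher between the sides. A gene in a table of the uniform pairs was counted there even if it also stood in a table chosen on split libraries. Counts of members from the tables of the uniform pairs are therefore not wholly free of that choice. Genes in none of the tables read carry no description and could not enter a list.

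A direct test asked in which genes the split difference was larger or smaller than the uniform difference. This difference of differences was called in 1397 genes (5.59%), positive in 911 (3.64%) and negative in 486 (1.94%). The negative count rests on single libraries: it was 259 without +N split replicate 2, 299 without +N split replicate 3, 257 without −N split replicate 2, 268 without −N replicate 1 and 256 without −N replicate 3. Among the positive genes, 812 were called higher in +N split than in −N split roots, and their median log2 difference was 1.31 between the sides and −0.10 between uniform pairs. Both ends contributed to that gap. In these 812 genes the mean of the +N split roots stood a median of 0.49 above that of +N roots, and the mean of the −N split roots a median of 0.77 below that of −N roots, on the log2(mean CPM + 0.1) scale. These medians describe genes chosen by their sum and were not tested. The 303 genes called negative and lower in +N split roots had medians of −0.68 between the sides and 0.16 between uniform pairs. Of the 19 genes with a name in the study's tables, the difference of differences was called positive in 17. The study lists most of these, among them OlNADH-GOGAT2 and OlPPDKA, as higher in +N split than in +N roots. That choice favours a positive difference of differences, so that this share is not independent evidence.

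**Figure D1:**
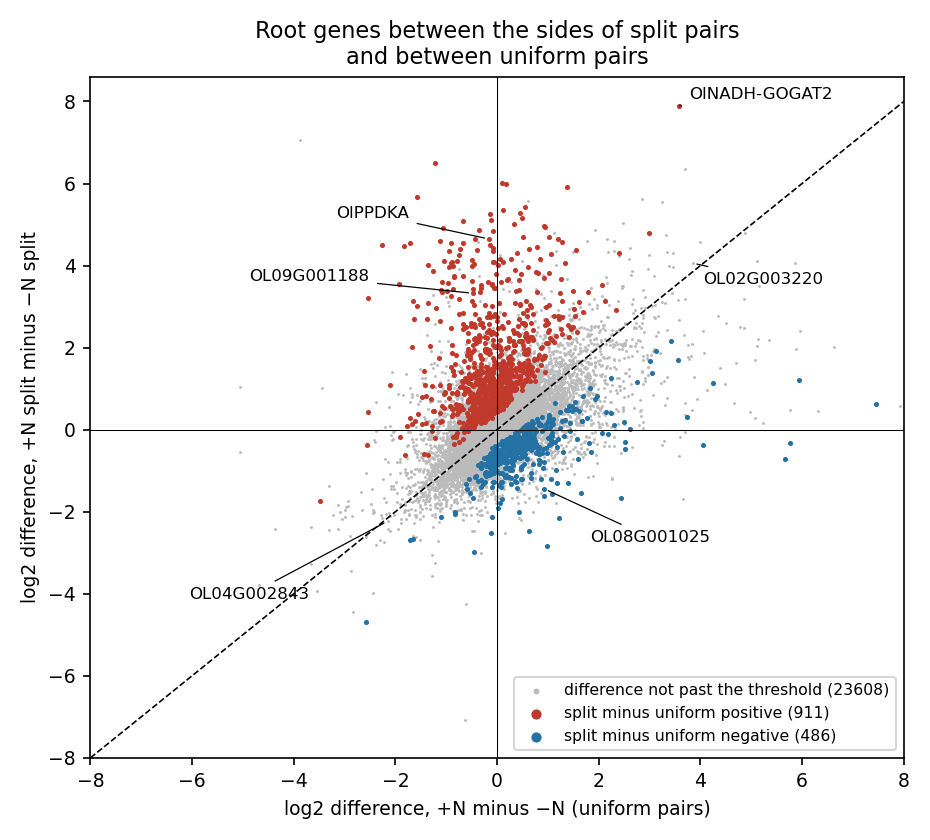
Each point is 1 of 25005 genes, with its log2 difference between uniform pairs (+N minus −N) on the x axis and between the sides of split pairs (+N split minus −N split) on the y axis. Red points are the 911 genes whose split difference was called larger and blue points the 486 called smaller, and the red points lie mostly above 0 on the y axis and near 0 on the x axis, while OL02G003220 and OL04G002843 lie close to the dashed line of equal differences.

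Among transporters that bring nitrogen into the root, the 3 ammonium transporter models moved in different directions. OL02G002258, the model for the ammonium-inducible OlAMT1;2 and OlAMT1;3 together, was at 47.6, 40.1 and 76.2 CPM in +N split roots and 7.25, 9.26 and 17.5 CPM in −N split roots. The lowest supplied root stood above the highest deprived root, and the gene was 4.82-fold higher in +N split roots (log2 difference 2.27 ± 0.31, adjusted p = 0.000205). Its means were 20.5 CPM in +N and 24.0 CPM in −N roots, so that the uniform difference was −0.23 ± 0.30 and the split difference exceeded it by 2.5 ± 0.43 (adjusted p = 0.0047). This model is in no table of the uniform pairs but in tables chosen on split libraries, so its direction is not independent evidence. OL03G003767, described only as a member of the ammonium transporter family, ran the other way, at 25.5, 37.4 and 27.1 CPM in +N split roots and 87.4, 91.1 and 77.8 CPM in −N split roots, 2.85-fold lower with supply (log2 difference −1.51 ± 0.15, adjusted p = 2.15e-05). OL02G001811, ammonium transporter 3 member 3, was low throughout and 2.71-fold lower in +N split roots (log2 difference −1.44 ± 0.25, adjusted p = 0.000896), with 0.827, 1.52 and 1.76 CPM on the supplied side against 3.23, 4.17 and 3.74 CPM on the deprived side. For these last genes the split and uniform differences were not told apart by the test (−0.65 ± 0.21 with adjusted p = 0.106, and 1.01 ± 0.35 with adjusted p = 0.122).

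The 4 nitrate reductase models that carry a description, for the enzyme that reduces nitrate to nitrite, were higher in +N split roots. Over all genes tested, 15.6% were higher. Nitrate reductase models in none of the tables read could not enter this count. OL02G003220 was at 44.8, 74.7 and 64.3 CPM in +N split roots and 3.65, 4.17 and 3.21 CPM in −N split roots, a 16.7-fold difference (log2 difference 4.06 ± 0.23, adjusted p = 2.35e-07). Between uniform pairs its difference was 3.85 ± 0.23, and the gap was 0.21 ± 0.30 (adjusted p = 0.745). OL08G001450 was at 37.5, 37.3 and 44.4 CPM in +N split roots and 4.95, 6.70 and 5.93 CPM in −N split roots (log2 difference 2.76 ± 0.15, adjusted p = 2.3e-07), and here the split difference was larger than the uniform one by 2.18 ± 0.21 (adjusted p = 0.000115). OL08G001452 and OL02G000926 behaved alike in these libraries, with log2 differences of 2.71 ± 0.16 and 2.56 ± 0.16 between the sides and of 0.43 and 0.54 between uniform pairs. OL08G001450 and OL08G001452 are neighbouring models whose reads may have been shared, and OL08G001452 and OL02G000926 come from tables chosen on split libraries, so that their direction is not independent evidence. Nitrate transport was less uniform. Of the 11 members of the nitrate and peptide transporter list that come from the tables of the uniform pairs, 3 were higher, 2 lower and 6 not past the threshold, with a median log2 difference of 0.17, beside −0.02 over all genes tested. Leaving out −N split replicate 3 gave a median of 0.03, and leaving out −N split replicate 2 gave 0.29. OL04G001435, a model of the NRT3 family, whose proteins in Arabidopsis and rice partner high-affinity nitrate transporters, was at 1.77, 2.78 and 2.78 CPM in +N split roots and 0.243, 0.362 and 0.275 CPM in −N split roots (log2 difference 3.05 ± 0.34, adjusted p = 4.26e-05), and it too comes from a table chosen on split libraries. OL02G002697, a POT family model, was 4.00-fold lower in +N split roots (log2 difference −2.0 ± 0.20, adjusted p = 2.02e-05).

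In the GS and GOGAT cycle, OlNADH-GOGAT2 (OL05G002363) had the largest log2 rise of all 25005 genes tested. It was at 579, 623 and 709.5 CPM in +N split roots and 2.03, 1.83 and 4.12 CPM in −N split roots, high in every supplied root and low in every deprived one (239-fold, log2 difference 7.90 ± 0.44, adjusted p = 2.35e-07). Uniform roots lay in between, with means of 145 CPM in +N and 12.1 CPM in −N, and the split difference exceeded the uniform one by 4.31 ± 0.50 (adjusted p = 0.000358). OlGS1;2 (OL03G000840), the ammonium-responsive cytosolic GS of rice roots, was at 1696, 1575 and 1841 CPM in +N split roots and 90.8, 127 and 160.1 CPM in −N split roots, 13.5-fold higher with supply (log2 difference 3.76 ± 0.18, adjusted p = 1.02e-07). Its uniform difference was 3.09 ± 0.18, and the gap of 0.67 ± 0.23 (adjusted p = 0.119) did not pass the threshold. OL03G000841, the neighbouring GS model, gave 739.8, 663 and 818 CPM against 31.2, 46.0 and 62.5 CPM (log2 difference 3.99 ± 0.22, adjusted p = 2.24e-07), and reads may have been shared between these copies. OlGS1;1 (OL02G003003), the other cytosolic GS, moved in the opposite direction, from 729, 643 and 621 CPM in +N split roots to 1325, 1623 and 1423 CPM in −N split roots (log2 difference −1.13 ± 0.11, adjusted p = 1.58e-05). The asparagine synthetase model OL03G001277, named after its values were seen, stood apart because its split difference was the smaller one: 144, 114 and 139.8 CPM against 46.4, 72.03 and 46.8 CPM between the sides (1.27 ± 0.18), 2.24 ± 0.18 between uniform pairs, and a gap of −0.97 ± 0.25 (adjusted p = 0.0417). That call of the gap held when +N replicate 2, −N replicate 2 or the first or last of the −N split libraries was left out, and was lost without any other library. Of the 7 ammonium assimilation models, all from the tables of the uniform pairs, 5 were higher, 1 was lower and 1 was not past the threshold, beside 15.6% higher and 16.8% lower over all genes tested.

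Aminotransferases hand the amino group of glutamate on to organic acids. Of 17 models from the tables of the uniform pairs, 10 were higher and 3 lower in +N split roots (median 0.52), a share like that of the whole table of genes higher in +N than in −N (1170 of 1998 higher). Of 7 models found only in tables chosen on split libraries, which is not independent evidence, 6 were higher and 0 lower. The alanine aminotransferase model OL03G000581 was at 195, 191 and 213 CPM in +N split roots and 5.66, 7.62 and 8.23 CPM in −N split roots, 27.9-fold higher (log2 difference 4.80 ± 0.18, adjusted p = 3.16e-08), the second smallest p among all genes. OlAlaAT1 (OL10G000682), a second alanine aminotransferase, was at 1221, 1120.2 and 1354 CPM in +N split roots and 147, 162 and 194 CPM in −N split roots (log2 difference 2.88 ± 0.12, adjusted p = 3.54e-08). OlAspAT (OL06G001607), which makes aspartate from oxaloacetate, was at 223, 206 and 235 CPM in +N split roots and 19.9, 18.9 and 25.5 CPM in −N split roots (log2 difference 3.37 ± 0.14, adjusted p = 3.54e-08). For all 3 the split difference was larger than the uniform one, by 1.80 ± 0.22, 1.18 ± 0.16 and 1.88 ± 0.18. OlAlaAT1 and OlAspAT are listed in the study as higher in +N split than in +N roots, a choice that favours that result. Another aspartate aminotransferase model, OL02G003394, changed less, from 75.3, 73.2 and 72.02 CPM in −N split to 159, 161 and 172 CPM in +N split roots (1.16 ± 0.08). Against the majority, the class-III aminotransferase model OL05G001805 was 3.04-fold lower with supply (log2 difference −1.60 ± 0.22, adjusted p = 0.000214).

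Aspartate leads to lysine, threonine, methionine and isoleucine through aspartate kinase, and 3 enzymes at the head of this branch were higher in +N split roots. OlAK (OL03G003830), an aspartate kinase, was at 738, 815 and 934 CPM in +N split roots and 49.0, 62.0 and 66.4 CPM in −N split roots, 14.02-fold higher (log2 difference 3.81 ± 0.20, adjusted p = 1.53e-07). OlASADH (OL03G003219), the semialdehyde dehydrogenase of the next step, was at 322, 303 and 369 CPM in +N split roots and 60.2, 64.9 and 66.3 CPM in −N split roots (log2 difference 2.38 ± 0.10, adjusted p = 3.54e-08). OlAK-HSDH1 (OL08G000963), a fused aspartate kinase and homoserine dehydrogenase, was at 221, 224 and 276 CPM in +N split roots and 77.9, 72.4 and 95.3 CPM in −N split roots (log2 difference 1.55 ± 0.12, adjusted p = 2.58e-06). Their differences declined along this order, and in each the supplied and deprived libraries were clearly apart. The split difference was larger than the uniform one by 2.79 ± 0.25, 1.38 ± 0.14 and 0.97 ± 0.17. All 3 are listed in the study as higher in +N split than in +N roots, a choice that favours that result. Over the wider list of amino acid synthesis, 17 of 26 models from the tables of the uniform pairs were higher and 1 was lower, with a median of 0.49 between the sides and 0.79 between uniform pairs. The whole table of genes higher in +N than in −N had 1170 of 1998 higher, a share near that of this list. OL03G001244, described as a prephenate dehydratase of phenylalanine synthesis, rose from 18.5 ± 0.329 to 65.9 ± 2.18 CPM (SD, n = 3), a log2 difference of 1.83 ± 0.09, beside a uniform difference of 1.41 ± 0.09 (adjusted p of the gap = 0.0754).

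Amino acid transporters went both ways. Of 20 models from the tables of the uniform pairs, 8 were higher, 6 lower and 6 not past the threshold (median 0.47). Amino acid permease 6 (OL01G003853) was at 37.4, 38.7 and 46.4 CPM in +N split roots and 6.01, 7.76 and 6.97 CPM in −N split roots (log2 difference 2.56 ± 0.16, adjusted p = 4.23e-07). OL02G000633, of the tryptophan and tyrosine permease family, was at 80.7, 86.5 and 113 CPM in +N split roots and 23.5, 27.5 and 20.3 CPM in −N split roots (log2 difference 1.97 ± 0.18, adjusted p = 9.14e-06), and its uniform difference was 1.78 ± 0.18. OL01G003886, whose description holds only the words amino acid, was 4.12-fold lower in supplied roots, with 7.51, 6.12 and 7.999 CPM against 31.1, 24.8 and 33.3 CPM (log2 difference −2.04 ± 0.18, adjusted p = 7e-06).

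**Figure D2:**
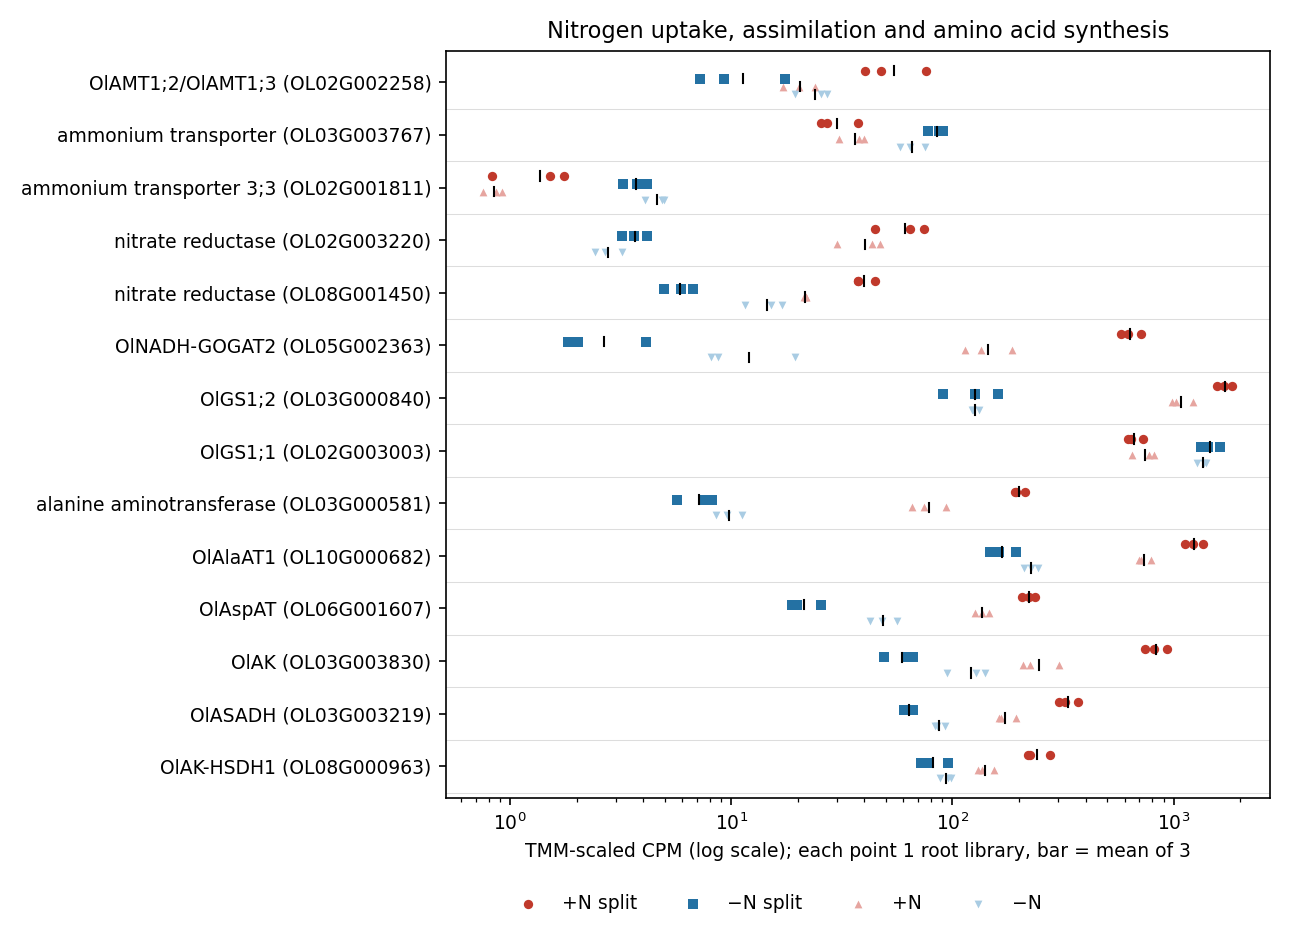
Levels of 14 nitrogen genes in TMM-scaled CPM on a log axis, 1 point per root library, with circles for +N split, squares for −N split, upward triangles for +N and downward triangles for −N, and a bar at the mean of 3 libraries. The circles and squares do not overlap in any of the 14 genes, OlNADH-GOGAT2 shows the widest gap (579 to 710 against 1.83 to 4.12 CPM), and OlGS1;1 and 2 ammonium transporters run opposite to the rest.

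Glycolysis, which breaks hexose phosphates down to pyruvate, was higher in most models on the supplied side. Of 37 models from the tables of the uniform pairs, 28 were higher, 3 lower and 6 not past the threshold. Of the whole table of genes higher in +N than in −N, 1170 of 1998 were higher. All 8 models found only in tables chosen on split libraries were higher, a call that this choice favours. The median of the 37 models was 1.30 between the sides and 0.78 between uniform pairs. The list was made by words in the descriptions and also holds phosphoenolpyruvate carboxylase, pyruvate phosphate dikinase and phosphoglucomutase models. With these included, the 45 models took 3.38% to 3.81% of all counts in +N split libraries and 1.04% to 1.23% in −N split libraries. OlGPI (OL03G003308), glucose-6-phosphate isomerase at the entry, was at 492, 522 and 561 CPM in +N split roots and 105, 125 and 133 CPM in −N split roots (log2 difference 2.12 ± 0.11, adjusted p = 1.36e-07). A second isomerase model, OL06G000956, gave nearly the same log2 difference, 2.11 ± 0.09. At the phosphofructokinase step, OL05G000593 was at 197, 192 and 226 CPM in +N split roots and 9.20, 12.1 and 9.83 CPM in −N split roots, 19.7-fold higher (log2 difference 4.30 ± 0.23, adjusted p = 1.83e-07), and OlPFK5 (OL05G002151) was at 401, 445 and 555 CPM in +N split roots and 61.4, 71.8 and 92.6 CPM in −N split roots (log2 difference 2.63 ± 0.19, adjusted p = 1.81e-06). OlPFPB (OL06G000911) and OlPFP1α3 (OL08G000976), subunits of the pyrophosphate-dependent enzyme, had log2 differences of 1.91 ± 0.13 and 2.17 ± 0.16. These rises were larger than between uniform pairs: the uniform differences were 0.21 for OlPFK5, 0.34 for OlPFPB and 0.31 for OlPFP1α3, and the gap was called for each (2.42 ± 0.26, 1.56 ± 0.18 and 1.85 ± 0.21). These 3 genes come only from tables chosen on split libraries.

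Below the hexose phosphates, OlALDC1 (OL01G004030), a cytosolic aldolase, was at 5346, 5431 and 6581 CPM in +N split roots and 689, 828 and 1033 CPM in −N split roots (log2 difference 2.77 ± 0.16, adjusted p = 2.58e-07). OlTPI1 (OL01G000318), triosephosphate isomerase, was at 1987, 2082 and 2192 CPM in +N split roots and 489, 551 and 555 CPM in −N split roots (log2 difference 1.97 ± 0.11, adjusted p = 2.41e-07). OlGAPC1 (OL02G002091), cytosolic glyceraldehyde-3-phosphate dehydrogenase, was at 7434, 7711 and 9171 CPM in +N split roots and 735, 1042 and 1205 CPM in −N split roots (log2 difference 3.03 ± 0.17, adjusted p = 2.58e-07). Each of these enzymes showed a called excess over the uniform difference, of 1.64 ± 0.21, 1.35 ± 0.15 and 2.0 ± 0.23. The study lists OlALDC1, OlTPI1 and OlGAPC1 as higher in +N split than in +N roots, a choice that favours such an excess. OlENO1 (OL10G000304), enolase, had the smallest rise of the genes named by the study, 2.56-fold, from 1194, 1235 and 1339.7 CPM in −N split to 2969, 3105 and 3589 CPM in +N split roots (log2 difference 1.36 ± 0.10, adjusted p = 1.81e-06).

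Phosphoenolpyruvate is the branch point at which carbon goes on to pyruvate or to oxaloacetate, and the genes there did not move as a block. The pyruvate kinase OL01G002472 was lower with supply, at 31.5, 33.3 and 28.7 CPM in +N split roots and 65.3, 76.0 and 61.3 CPM in −N split roots (log2 difference −1.11 ± 0.13, adjusted p = 7.34e-05). Another pyruvate kinase model, found only in tables chosen on split libraries, was higher, and a further one is not described here. OlPPDKA (OL03G002044), pyruvate phosphate dikinase, was at 5278, 5411 and 6304 CPM in +N split roots and 111, 293 and 273 CPM in −N split roots, 25.1-fold higher (log2 difference 4.65 ± 0.36, adjusted p = 2.62e-06), although its levels in uniform pairs were 1524 CPM in +N and 1713 CPM in −N roots (uniform difference −0.17 ± 0.31, gap 4.82 ± 0.46, adjusted p = 0.00012). OlPPC4 (OL01G000707), a phosphoenolpyruvate carboxylase, was at 21.7, 21.7 and 27.8 CPM in +N split roots and 5.17, 5.35 and 3.62 CPM in −N split roots (log2 difference 2.33 ± 0.18, adjusted p = 2.47e-06). A second carboxylase model, OL08G001025, ran in the opposite direction, at 24.6, 16.6 and 31.0 CPM in +N split roots and 70.4, 69.1 and 57.2 CPM in −N split roots (log2 difference −1.45 ± 0.20, adjusted p = 0.000181). That gene was higher in +N than in −N roots (41.9 CPM in +N and 21.9 CPM in −N, uniform difference 0.93 ± 0.19), so that the sign turned between uniform and split pairs, with a gap of −2.38 ± 0.28 (adjusted p = 0.000385). Malic enzymes, which make pyruvate from malate, were raised: OL01G000594 was at 1291, 1305 and 1362 CPM in +N split roots and 177, 212 and 195 CPM in −N split roots (log2 difference 2.76 ± 0.15, adjusted p = 2.24e-07). OL05G000564 was at 474, 476 and 536 CPM in +N split roots and 20.1, 35 and 28.2 CPM in −N split roots, 17.9-fold higher (log2 difference 4.16 ± 0.37, adjusted p = 7.84e-06). Other organic acid models had smaller differences. Of its 19 models, 10 were higher, 1 was lower and 8 were not past the threshold, the median was 0.41 and the malate dehydrogenase OL01G003521, with a log2 difference of 0.67 ± 0.08, was the next in order of p after the malic enzymes. The whole table of genes higher in +N than in −N had 1170 of 1998 higher, a share near that of the organic acid models. For 4 models of the organic acid list the split difference was called smaller than the uniform one and for 2 larger.

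Of 21 sucrose and trehalose models from the tables of the uniform pairs, 15 were higher and 1 was lower in +N split roots (median 0.65), beside 1170 higher of the 1998 genes of the table of genes higher in +N than in −N. Trehalose-phosphatase makes trehalose from trehalose 6-phosphate, a sugar signal in plants. The trehalose-phosphatase models OL08G001191 and OL02G002516 were 4.79-fold and 4.64-fold higher, at 63.4, 56.1 and 62.7 CPM in +N split roots and 13.4, 12.1 and 12.6 CPM in −N split roots for the former (log2 difference 2.26 ± 0.14, adjusted p = 5.03e-07) and 67.5, 84.0 and 94.9 CPM in +N split roots and 19.0, 18.5 and 15.6 CPM in −N split roots for the latter (log2 difference 2.21 ± 0.23, adjusted p = 2.16e-05). OL06G000607, described as a sucrose-cleaving enzyme that provides UDP-glucose, was at 2198, 2548 and 3339 CPM in +N split roots and 939.5, 1046 and 1304 CPM in −N split roots (log2 difference 1.30 ± 0.16, adjusted p = 9.62e-05). The acid invertase OL02G000043 was the exception, 1.67-fold lower with supply, at 186, 206 and 143 CPM against 283, 356 and 254 CPM (log2 difference −0.74 ± 0.15, adjusted p = 0.00241). In the pentose phosphate pathway, which supplies reductant, 4 of 6 models from the tables of the uniform pairs were higher and 0 were lower. Both models found only in tables chosen on split libraries were higher, a call that this choice favours.

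Plant cysteine oxidases are oxygen-dependent enzymes that destabilize group VII ethylene response factors in Arabidopsis, and pyruvate decarboxylase and alcohol dehydrogenase form the ethanol fermentation pathway. Of the 6 models of low oxygen and fermentation from the tables of the uniform pairs, 5 were higher and 0 lower in +N split roots, and for 4 the split difference was called larger than the uniform one, with medians of 2.19 between the sides and −0.03 between uniform pairs. Over all genes tested, 15.6% were higher between the sides and 3.64% had a split difference called larger. The 6 models are not free of a choice on split libraries, since OL01G000575 also stands in tables chosen on them. Another 8 models were found only in tables chosen on split libraries, a choice that favours both calls: all 8 were higher, with medians of 2.62 and −0.10. The summed level of all 14 was 16818 to 22605 CPM in +N split libraries and 2022 to 3429 CPM in −N split libraries. Plant cysteine oxidase 2 (OL09G001188) was at 25.1, 20.7 and 22.4 CPM in +N split roots and 1.81, 2.19 and 2.80 CPM in −N split roots, a log2 difference of 3.33 ± 0.17 (adjusted p = 1.36e-07), while the uniform means were 8.02 CPM in +N and 11.2 CPM in −N roots. In those uniform pairs the sign was opposite (−0.48 ± 0.15), and the gap of 3.81 ± 0.23 (adjusted p = 1.15e-05) shared the smallest adjusted p of this test over all genes. Alcohol dehydrogenase 1 (OL11G000555) was at 1337, 1643 and 1905 CPM in +N split roots and 61.9, 62.1 and 98.0 CPM in −N split roots, 22.0-fold higher (log2 difference 4.46 ± 0.25, adjusted p = 2.58e-07). A second alcohol dehydrogenase, unmappedContigsG000545, was at 5245, 5554 and 7483 CPM in +N split roots and 768, 969 and 1176 CPM in −N split roots (log2 difference 2.65 ± 0.20, adjusted p = 1.92e-06), although its uniform means were alike (2529 CPM in +N and 2524 CPM in −N). OL01G000575, described by the domain DUF1637 that plant cysteine oxidases carry, was at 155, 146 and 176 CPM in +N split roots and 27.9, 28.2 and 36.8 CPM in −N split roots (log2 difference 2.36 ± 0.15, adjusted p = 5.16e-07), with a uniform difference of −0.57 ± 0.14. The pyruvate decarboxylase OL05G001771, named after its values were seen, was at 4127, 3981 and 5174 CPM in +N split roots and 71.6, 302 and 319 CPM in −N split roots (log2 difference 4.26 ± 0.47, adjusted p = 4.23e-05). Among the deprived roots −N split replicate 1 was the lowest, and all 3 supplied roots lay far above the deprived ones.

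**Figure D3:**
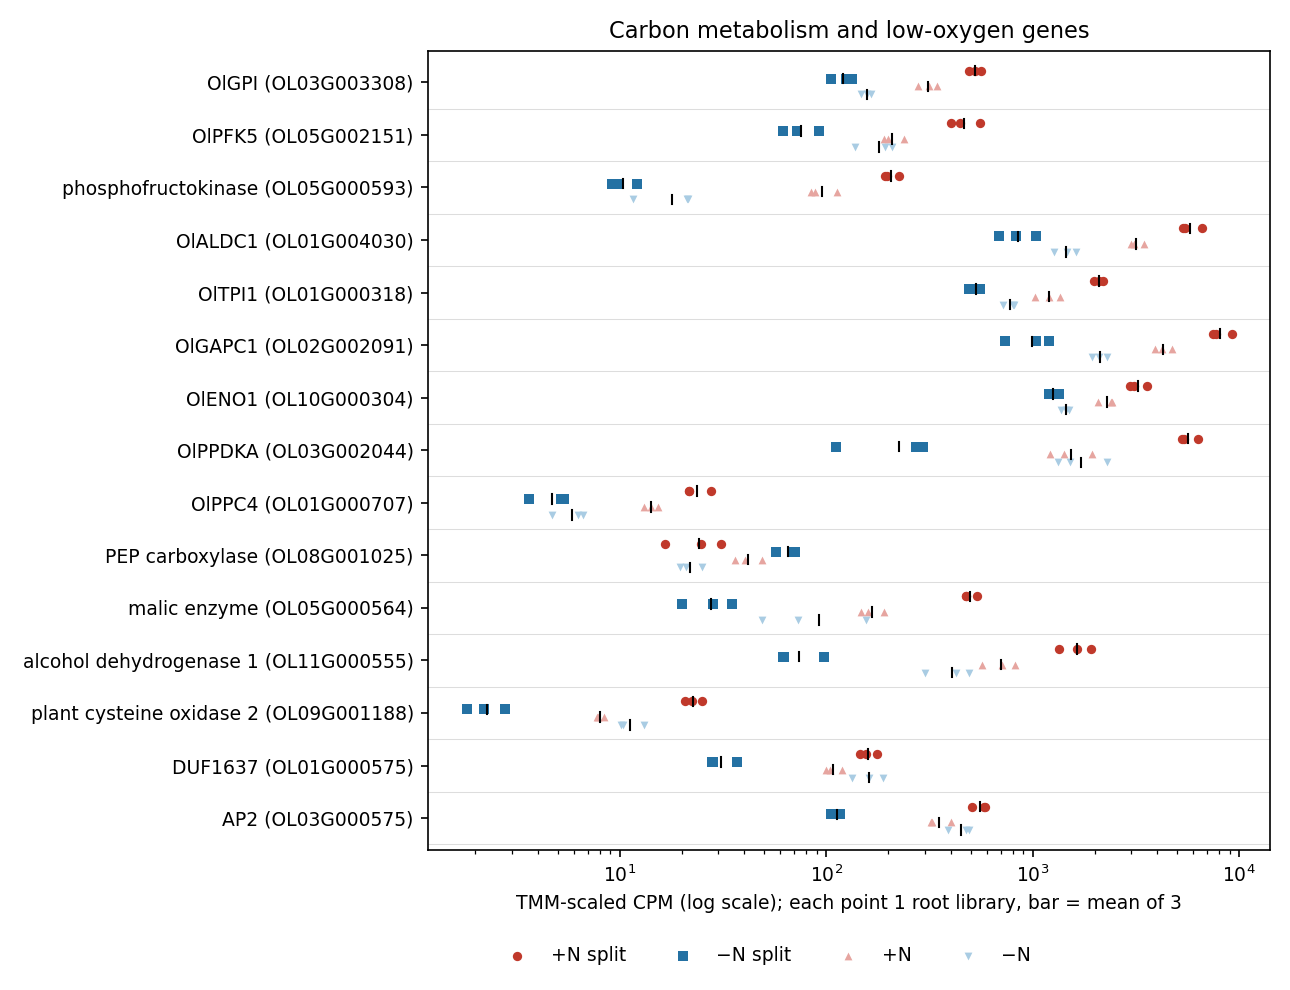
Levels of 15 carbon and low-oxygen genes in TMM-scaled CPM on a log axis, 1 point per root library with the group symbols +N split (circles), −N split (squares), +N (upward triangles) and −N (downward triangles), and a bar at the mean of 3 libraries. In the lower rows (alcohol dehydrogenase 1, plant cysteine oxidase 2, DUF1637 and AP2) the −N split squares lie left of all other groups, and the PEP carboxylase OL08G001025 alone has the squares right of the circles.

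Transcription factors were the largest list. Of 126 models from the tables of the uniform pairs, 66 were higher, 17 lower and 43 not past the threshold, with a median of 0.56 between the sides and 0.78 between uniform pairs. Of the whole table of genes higher in +N than in −N, 1170 of 1998 were higher. Of the opposite table, 669 of 991 were lower. Of 24 models found only in tables chosen on split libraries, a choice that favours a higher call, 20 were higher and 0 lower. Their medians were 1.34 and 0.07. AP2 is a domain shared by the ethylene response factors. The AP2 models named here were found only in tables chosen on split libraries, while other AP2 models of the list came from the tables of the uniform pairs. OL03G000575 was at 584, 506 and 579.9 CPM in +N split roots and 105, 117 and 116 CPM in −N split roots (log2 difference 2.30 ± 0.12, adjusted p = 1.65e-07), and its uniform means were 351 CPM in +N and 451 CPM in −N roots. OL01G001279 was at 137, 145 and 150.4 CPM in +N split roots and 6.81, 10.03 and 8.62 CPM in −N split roots, 17.0-fold higher (log2 difference 4.09 ± 0.24, adjusted p = 3.22e-07), against 68.4 CPM in +N and 71.8 CPM in −N roots. OL01G001287 gave almost the same values (4.09 ± 0.24), and since these models lie close together their reads may have been shared. OL11G000463, a NAM (NAC) model, differed in uniform pairs too: 348, 315 and 358 CPM against 51.3, 54.4 and 72.8 CPM between the sides (2.52 ± 0.12) and 1.93 ± 0.12 between uniform pairs.

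Of 24 hormone models from the tables of the uniform pairs, 11 were higher, 2 lower and 11 not past the threshold. Of the whole table of genes higher in +N than in −N, 1170 of 1998 were higher. All 6 hormone models found only in tables chosen on split libraries were higher, a call that this choice favours. OL03G003220, described as gibberellin regulated, was at 124, 110.0 and 121 CPM in +N split roots and 15.8, 22.9 and 21.7 CPM in −N split roots (log2 difference 2.56 ± 0.15, adjusted p = 2.9e-07). The auxin efflux carrier OL01G003349 was at 152, 126 and 159 CPM in +N split roots and 38.0, 44.3 and 53.8 CPM in −N split roots (log2 difference 1.68 ± 0.13, adjusted p = 2.05e-06) and was not called between uniform pairs (0.12 ± 0.12). OL10G001138, a cytokinin dehydrogenase that degrades cytokinins, was at 28.5, 26.7 and 33.1 CPM in +N split roots and 10.8, 6.89 and 10.4 CPM in −N split roots (log2 difference 1.65 ± 0.15, adjusted p = 1.05e-05). The auxin-responsive protein IAA13 (OL03G003104) was 2.43-fold lower in supplied roots, at 44.2, 38.2 and 35.6 CPM against 106, 92.9 and 88.3 CPM (log2 difference −1.28 ± 0.14, adjusted p = 3.48e-05). All 4 phosphate transport and SPX models from the tables of the uniform pairs were higher, among them the SPX membrane protein OL04G002064 at 15.1, 20.5 and 29.9 CPM in +N split roots and 4.82, 3.76 and 2.20 CPM in −N split roots (log2 difference 2.60 ± 0.34, adjusted p = 0.000141), and the gap to the uniform difference was −0.14 ± 0.46 (adjusted p = 0.9).

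Outside these lists, OL01G000457, of the universal stress protein family, had the smallest p of all genes. It was at 57.2, 50.9 and 51.9 CPM in +N split roots and 10.2, 10.1 and 9.67 CPM in −N split roots (log2 difference 2.42 ± 0.08, adjusted p = 3.13e-08), and its uniform difference was 2.33 ± 0.08. OL01G003097, a haloacid dehalogenase-like hydrolase, was at 39.7, 37.9 and 37.0 CPM in +N split roots and 7.56, 6.82 and 7.06 CPM in −N split roots (2.42 ± 0.10) but less apart between uniform pairs (0.32 ± 0.10, gap 2.10 ± 0.14, adjusted p = 1.31e-05). OL06G002570, a DUF581 model, was at 63.0, 60.3 and 61.5 CPM in +N split roots and 19.7, 17.2 and 19.5 CPM in −N split roots (1.71 ± 0.10) and had the opposite sign between uniform pairs (−0.54 ± 0.10). Among genes of at least 10 CPM on one side, the largest rises after OlNADH-GOGAT2 were those of OL02G003483 and OL02G003497, both described only as reductases. OL02G003483 was at 151, 216 and 305 CPM in +N split roots and 3.63, 3.50 and 3.25 CPM in −N split roots, 64.7-fold higher (log2 difference 6.02 ± 0.62, adjusted p = 2.39e-05). OL02G003497, its near neighbour, gave 6.0 ± 0.57, and reads may have been shared between these models. The other genes of the largest rises were uneven among supplied roots. OL04G000387, a UDP-glycosyltransferase, was at 8.80, 80.8 and 26.5 CPM in +N split roots and 0.575, 0.868 and 0.917 CPM in −N split roots (log2 difference 5.62 ± 0.88, adjusted p = 0.000472), and OL08G000204, a cysteine-rich secretory protein, at 9.47, 91.3 and 239 CPM in +N split roots and 6.37, 0.0723 and 0.137 CPM in −N split roots (log2 difference 5.67 ± 1.34, adjusted p = 0.00645). In the latter, +N split replicate 1 and −N split replicate 1 were close to each other, and the log2 difference was 4.49 when +N split replicate 3 was left out and 10.03 when −N split replicate 1 was.

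Genes lower in +N split roots reached 2-fold less often in number, and fewer of them carry a description: 631 of the 4192 lower genes against 1709 of the 3892 higher ones, since the tables of genes raised by deprivation were read only in part. The amidohydrolase OL04G002843 had the smallest p, at 20.3, 20.1 and 19.4 CPM in +N split roots and 90.3, 95.3 and 95.3 CPM in −N split roots, 4.70-fold lower (log2 difference −2.23 ± 0.09, adjusted p = 3.54e-08). Its uniform difference was −2.15 ± 0.09 (gap −0.08 ± 0.13). The GDSL lipase OL01G001357 was at 3.56, 3.40 and 3.37 CPM in +N split roots and 16.2, 14.4 and 16.4 CPM in −N split roots (log2 difference −2.18 ± 0.19, adjusted p = 5.48e-06), and the sugar transporter OL04G001271 at 14.5, 9.75 and 11.5 CPM in +N split roots and 35.6, 48.9 and 40.7 CPM in −N split roots (log2 difference −1.81 ± 0.16, adjusted p = 5.99e-06). For both, the gap to the uniform difference did not pass the threshold (−0.39 ± 0.25 and −0.38 ± 0.21). OL05G001549, a DUF803 model, varied little among deprived roots, at 16.9, 16.8 and 16.7 CPM, against 5.35, 5.66 and 4.39 CPM in supplied roots (−1.71 ± 0.13).

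The largest falls belonged to models that carry no description here. OL06G001052 was at 2.57, 1.34 and 1.495 CPM in +N split roots and 50.2, 38.8 and 50.6 CPM in −N split roots, 25.7-fold lower (log2 difference −4.68 ± 0.34, adjusted p = 1.76e-06). OL12G001296 was at 1.31, 0.643 and 0.973 CPM in +N split roots and 14.4, 19.9 and 30.4 CPM in −N split roots (log2 difference −4.46 ± 0.40, adjusted p = 8.87e-06). OL09G000502 was at 0.597, 0.823 and 0.807 CPM in +N split roots and 11.2, 10.4 and 12.5 CPM in −N split roots (log2 difference −3.93 ± 0.45, adjusted p = 5.48e-05). In these genes every deprived root was above every supplied root by a wide margin. OL11G000421 was at 6.73, 6.84 and 5.15 CPM in +N split roots and 70.8, 77.6 and 55.2 CPM in −N split roots (log2 difference −3.44 ± 0.20, adjusted p = 3.22e-07), and OL12G000529 at 3.03, 2.32 and 2.99 CPM in +N split roots and 33.2, 16.3 and 9.94 CPM in −N split roots (log2 difference −2.83 ± 0.72, adjusted p = 0.00963). The deprived roots of OL12G000529 spread more than 3-fold. Its +N mean, 33.1 CPM, was above its −N mean, but the +N roots were uneven. They had 2326, 208 and 2108 counts, and replicate 2 lay below every −N library (523, 1382 and 596 counts). OL08G000484 and OL08G000485, adjacent models, were 6.37-fold and 6.44-fold lower. OL03G001364 was at 12.6, 10.1 and 11.7 CPM in +N split roots and 27.4, 28.6 and 27.5 CPM in −N split roots (−1.28 ± 0.09) and was not called between uniform pairs (0.09 ± 0.09, gap −1.37 ± 0.13, adjusted p = 0.00012).

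Most cell division models listed here were lower in supplied roots. Of 32 models of nucleosome histones, kinesins, MCM helicase subunits and cyclins from the tables of the uniform pairs, 29 were lower, 0 higher and 3 not past the threshold. Of the whole table of genes higher in −N than in +N, 669 of 991 were lower, beside 16.8% of all genes tested. The log2 differences of the 32 models lay between −1.09 and −0.38 with a median of −0.83, beside −0.64 between uniform pairs. In none of the 32 was the gap to the uniform difference called. The MCM model OL05G001809 was at 35.4, 29.0 and 28.8 CPM in +N split roots and 62.0, 64.4 and 68.0 CPM in −N split roots (log2 difference −1.06 ± 0.13, adjusted p = 8.63e-05), and the kinesin motor model OL02G003264 at 86.6, 92.2 and 92.0 CPM in +N split roots and 133, 130.2 and 143 CPM in −N split roots (log2 difference −0.58 ± 0.07, adjusted p = 7.84e-05). The summed level of all 33 listed models was 1471 to 1898 CPM in +N split and 2803 to 2868 CPM in −N split libraries. OL02G002098, described by cyclin-dependent protein kinase activity and found only in a table chosen on split libraries, was the exception with a log2 difference of 0.85 ± 0.17. Class III peroxidases, enzymes of the cell wall, were divided: of 38 models from the tables of the uniform pairs, 14 were lower, 8 higher and 16 not past the threshold. Over all genes tested, 16.8% were lower and 15.6% higher. Peroxidase 72 (OL01G001041) was at 4.41, 5.61 and 2.25 CPM in +N split roots and 20.01, 17.4 and 15.1 CPM in −N split roots (log2 difference −2.10 ± 0.26, adjusted p = 0.000104), and OL03G000913 at 1.98, 1.39 and 1.23 CPM in +N split roots and 12.5, 10.4 and 4.86 CPM in −N split roots (log2 difference −2.59 ± 0.35, adjusted p = 0.000159). OL01G001332, by contrast, was at 90.8, 75.3 and 75.8 CPM in +N split roots and 48.6, 49.7 and 44.7 CPM in −N split roots (log2 difference 0.76 ± 0.11, adjusted p = 0.000249). Among senescence-related and aspartyl proteases, 2 of 11 models were higher and 3 lower, beside the same 15.6% and 16.8% of all genes tested. The aspartyl protease OL02G001476 was 4.58-fold higher (2.19 ± 0.13) and OL02G002902 3.35-fold lower (−1.74 ± 0.32).

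A small class was lower in +N split roots although it was higher in +N than in −N roots. Besides the carboxylase OL08G001025, this held for OL06G002065, cytochrome P450 71D7, at 3.95, 2.47 and 4.23 CPM in +N split roots and 7.16, 10.1 and 8.84 CPM in −N split roots (log2 difference −1.29 ± 0.21, adjusted p = 0.000708) with 6.23 CPM in +N and 2.37 CPM in −N roots (gap −2.69 ± 0.30, adjusted p = 0.000341). It held also for OL06G001990, a polysaccharide biosynthesis protein, at 27.3, 25.4 and 30.1 CPM in +N split roots and 48.6, 44.3 and 41.3 CPM in −N split roots (log2 difference −0.69 ± 0.09, adjusted p = 0.000152) with 38.7 CPM in +N and 28.4 CPM in −N roots (gap −1.14 ± 0.13, adjusted p = 0.000341).

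**Figure D4:**
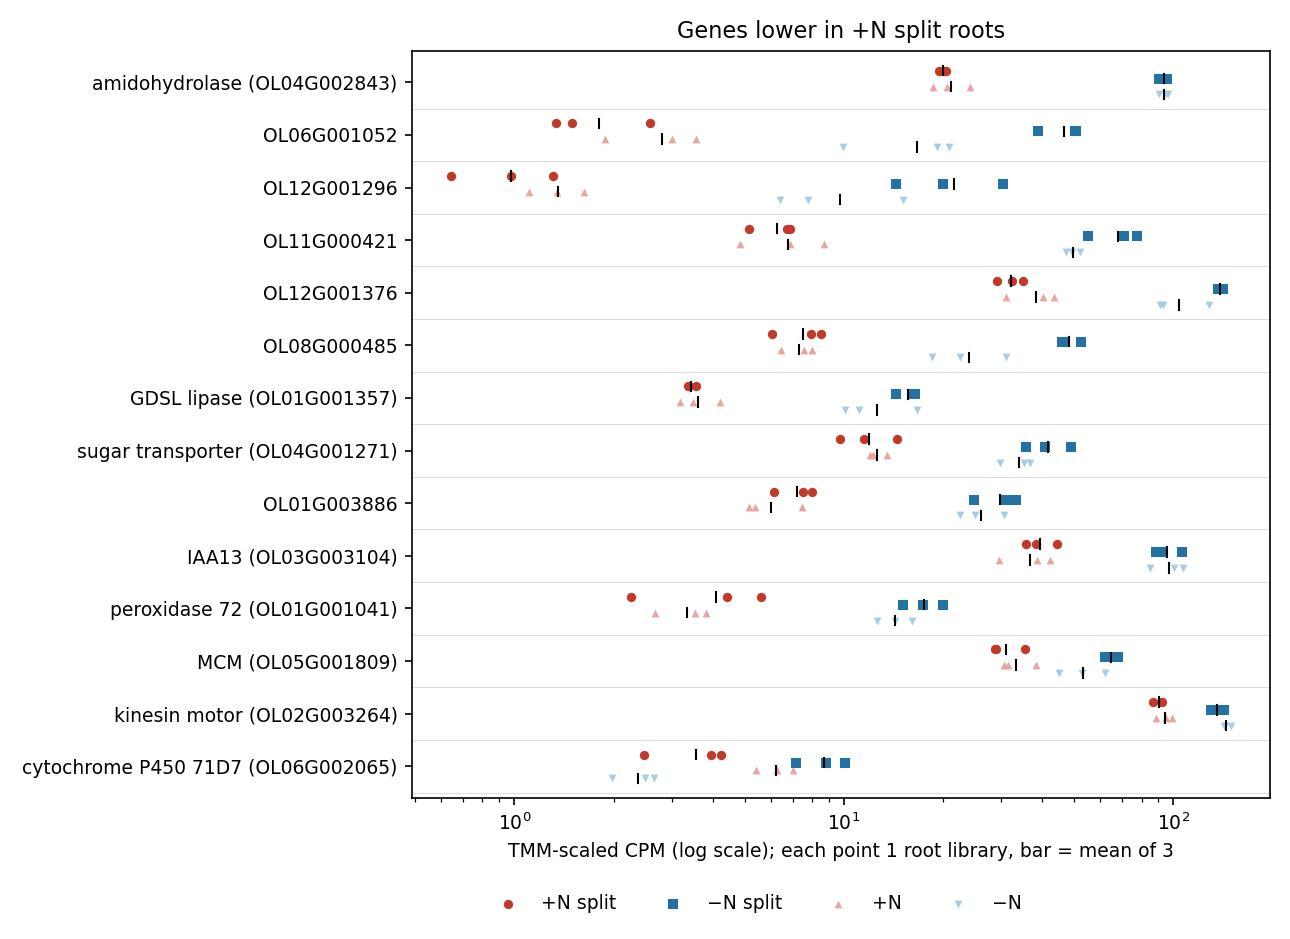
Levels of 14 genes lower in +N split roots in TMM-scaled CPM on a log axis, 1 point per root library with the group symbols +N split (circles), −N split (squares), +N (upward triangles) and −N (downward triangles), and a bar at the mean of 3 libraries. Circles lie left of squares in every gene, and in cytochrome P450 71D7 the −N triangles lie near the circles and left of the +N triangles.

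Genes of green tissue were checked, since the samples are labelled as roots. The root-type ferredoxin-NADP reductase OL03G003355 was at 73.1, 67.2 and 74.5 CPM in +N split roots and 62.5, 64.9 and 68.9 CPM in −N split roots, and the aquaporin OL07G001095 at 366, 299.7 and 398 CPM in +N split roots and 390.4, 399 and 417 CPM in −N split roots, and neither passed the threshold between the sides (adjusted p = 0.274 and 0.245). Of the 4 root material models, 1, from a table chosen on split libraries, was higher, and the summed level of the 4 overlapped between the sides (532 to 651 CPM and 587 to 627 CPM). Of 28 photosynthesis models, 6 were higher, 0 lower and 22 not past the threshold, beside 15.6% higher and 16.8% lower over all genes tested. All 6 were among the 10 models found only in tables chosen on split libraries, a choice that favours that call. Of the 18 models from the tables of the uniform pairs, 0 were called. None of the 28 models was at 0 counts in any of the 6 libraries. Their summed level ran from 1544 to 3749 CPM in +N split and from 684 to 2189 CPM in −N split libraries, so that the sides overlapped. The median of the 18 models from the tables of the uniform pairs was 0.84, but it was 1.64 without −N split replicate 1, which was the highest deprived library, and 0.34 without +N split replicate 3, the highest supplied one. It was 0.59 and 0.52 without −N split replicates 2 and 3. The chlorophyll a-b binding protein OL01G002860 shows the spread, at 288, 405 and 695 CPM in +N split roots and 295, 104 and 80.4 CPM in −N split roots (log2 difference 1.53 ± 0.44, adjusted p = 0.0182). Its call was lost without the last of the +N split libraries, or without either of replicates 2 and 3 of the −N split roots, and the log2 difference was 2.33 without −N split replicate 1. The Rubisco small chain OL02G000345 was separated between the sides, at 24.0, 36.0 and 42.4 CPM in +N split roots and 4.89, 1.35 and 1.86 CPM in −N split roots (log2 difference 3.65 ± 0.39, adjusted p = 2.82e-05), and so was OL01G002237, a PsbP model, at 8.50, 13.6 and 12.4 CPM in +N split roots and 7.94, 6.15 and 5.04 CPM in −N split roots (log2 difference 0.85 ± 0.21, adjusted p = 0.009). Models of 30S and 50S ribosomal proteins of organelles, all from tables chosen on split libraries, were called higher in 5 of 8 cases, with OL03G003874 at 16.2, 24.1 and 24.1 CPM in +N split roots and 10.6, 5.98 and 5.89 CPM in −N split roots (log2 difference 1.51 ± 0.24, adjusted p = 0.000506). The summed level of these 8 models was 107 to 166 CPM in +N split and 63.1 to 108 CPM in −N split libraries, and the part of green tissue in the other results was not tested. Without +N split replicate 3 and −N split replicate 1 together, a fit chosen after the data were seen, 2673 genes were higher and 2438 lower between the sides.

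**Figure D5:**
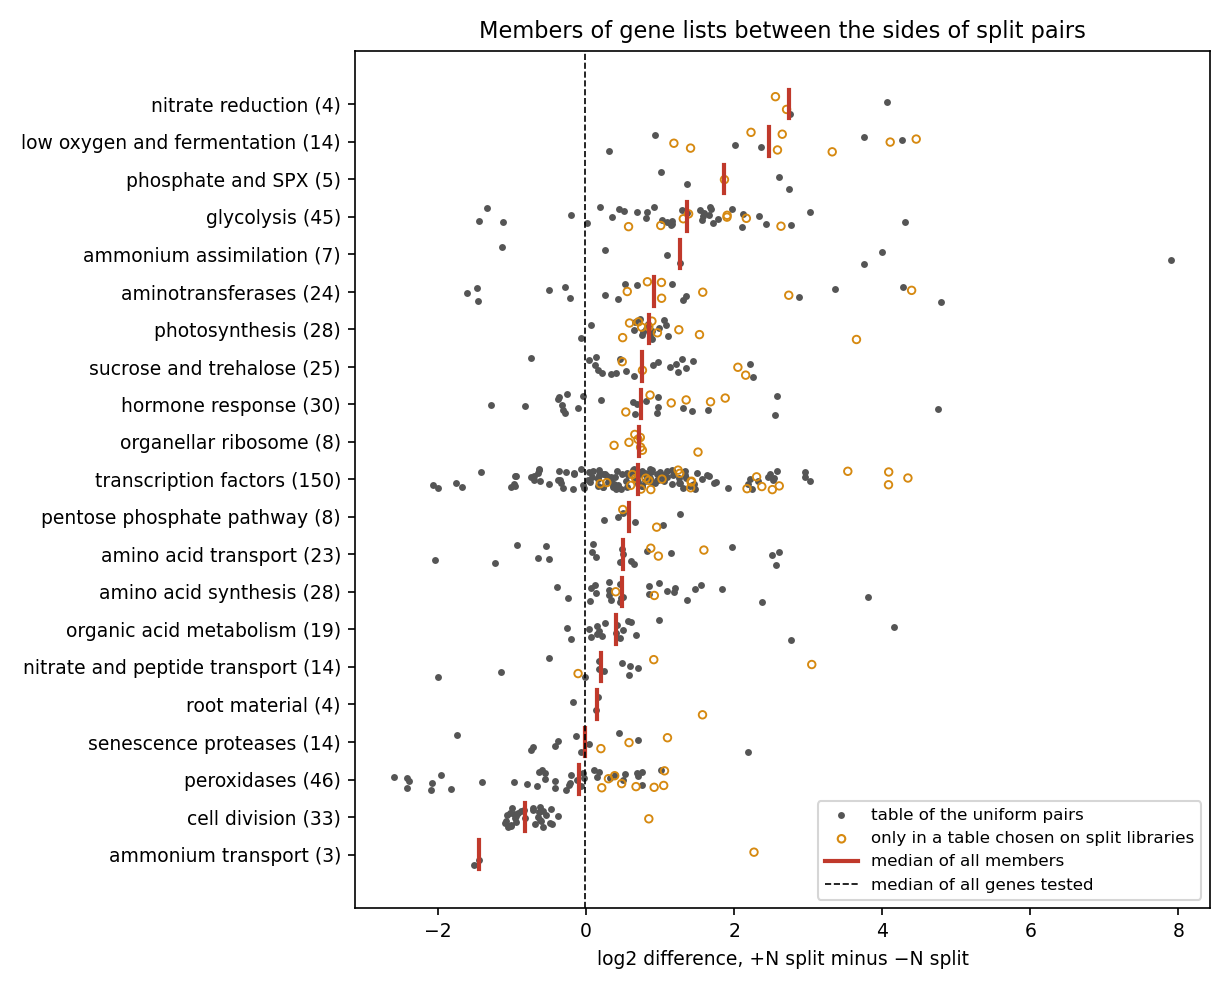
Each point is a gene model of 1 of 21 lists, with its log2 difference between +N split and −N split roots on the x axis and the number of models in brackets. Filled points come from the tables of the uniform pairs, open points only from tables chosen on split libraries, red bars are medians of all members, and the dashed line is the median of all genes tested. Nitrate reduction and low oxygen have the highest medians of all members (2.73 and 2.47), which include open points. Over filled points alone these medians were 3.41 (2 models) and 2.19 (6 models). The cell division members from the tables of the uniform pairs all lie below 0.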

How the data were processed

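The authors made poly(A) TruSeq libraries of *O. longistaminata* roots, sequenced them on NovaSeq, aligned reads with HISAT2 and ran featureCounts. Their versions, the genome build and strand setting: not given in the sources used here. The deposited tables hold unnormalized read counts for the 12 libraries and log2 CPM values, and the deposited log2 CPM equal those computed from the counts with a prior count of 2 to within 4.99e-09, so only the counts were tested. Column names were matched to sample titles, and the model identifiers, which carry a T in the count table, are written with the G of the paper's gene tables.

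Counts were filtered with filterByExpr (minimum count 10, minimum total 15), which kept 25005 of 29335 gene models, 1610 of which had 0 counts in all libraries. Libraries held 39071838 to 56252511 counted reads, with TMM factors of 0.922 to 1.07. The 4 groups were fitted together without a block in edgeR 4.0.16 (R 4.3.3, limma 3.58.1) with the quasi-likelihood test and Benjamini-Hochberg adjustment, with 8 residual degrees of freedom. Contrasts were +N split minus −N split, +N minus −N, and the difference between these. An exact permutation of 3 against 3 libraries cannot give a two-sided p below 0.1 and was not used. Replicate libraries differed by more than sampling noise, with chi-square values per gene of 21.9 to 52.8. The code was tested on simulated data.

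Descriptions and gene names came from the paper's supplementary tables, which describe 3412 of the genes tested and were partly truncated. Members and lists were chosen with earlier results of these data known. Named genes were those with a name in the tables, those of smallest p in each direction (all genes and described genes), the 5 largest rises and falls among genes with a mean of at least 10 CPM in the higher group, up to 4 members per list with the smallest p and up to 2 against the majority, and the genes of smallest p in the difference of differences. OL03G001277 and OL05G001771 were added after their values were seen. The study's own fold changes and p-values were not used, and sequences were not analysed here.

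Alternatives were DESeq2 size factors, edgeR's exact and likelihood ratio tests, the Wald test of DESeq2 1.42.0, other filters on low counts, stricter thresholds, a replicate block, separate fits of 6 libraries, each library left out, and list members from all tables. Leaving out both libraries richest in photosynthesis counts was added after the data were seen.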

Additional observations from a re-analysis of the deposited data

Results flagged for a closer look

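The difference between the sides was tested against the difference between uniform pairs for 95 genes named above, all but the pyruvate kinase OL01G002472, with adjustment over all 25005 genes. It was called for 59 of them, positive in 49 and negative in 10. Over all genes 5.59% were called, but many of the 95 genes were chosen for a small p or a large change in these contrasts, so that their higher share follows from the choice. Each value below is the log2 difference between the sides minus that between uniform pairs.

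Of nitrogen genes, OL02G002258 had 2.5, the nitrate reductases OL08G001450, OL08G001452 and OL02G000926 had 2.18, 2.27 and 2.01, and the NRT3 model OL04G001435 had 2.59. OlNADH-GOGAT2 had 4.31, the aminotransferases OL03G000581, OL10G000682, OL06G001607 and OL02G003394 had 1.80, 1.18, 1.88 and 0.73, and asparagine synthetase OL03G001277 had −0.97. OlAK, OlASADH and OlAK-HSDH1 had 2.79, 1.38 and 0.97, and amino acid permease 6 had 1.59.

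In glycolysis, the isomerases OL03G003308 and OL06G000956 had 1.12 and 1.15, and OL05G000593, OlPFK5, OlPFPB and OlPFP1α3 had 1.90, 2.42, 1.56 and 1.85. OlALDC1, OlTPI1, OlGAPC1 and OlENO1 had 1.64, 1.35, 2.0 and 0.69. At phosphoenolpyruvate, OlPPDKA had 4.82, OlPPC4 1.05 and the carboxylase OL08G001025 −2.38. The malic enzymes OL01G000594 and OL05G000564 had 1.57 and 3.31, the trehalose-phosphatases OL08G001191 and OL02G002516 had 0.85 and 1.52, and OL06G000607 had 0.85.

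Of low-oxygen genes, plant cysteine oxidase 2 had 3.81, the alcohol dehydrogenases OL11G000555 and unmappedContigsG000545 had 3.68 and 2.65, OL01G000575 had 2.93 and pyruvate decarboxylase OL05G001771 had 5.02. The AP2 models OL03G000575, OL01G001279 and OL01G001287 had 2.67, 4.16 and 4.16, the auxin efflux carrier OL01G003349 had 1.56 and the gibberellin regulated OL03G003220 had 1.16.

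Of other genes higher in +N split roots, OL01G003097 had 2.10, the reductases OL02G003483 and OL02G003497 had 5.92 and 5.83, OL08G000204 had 7.25, OL06G002570 had 2.25 and the aspartyl protease OL02G001476 had 1.10. The Rubisco small chain OL02G000345 and the ribosomal protein OL03G003874 had 3.22 and 1.58. Of genes lower there, OL06G001052 had −2.11, OL12G000529 −3.82, OL08G000484 −1.03, OL08G000485 −0.97, OL03G001364 −1.37, OL06G001990 −1.14 and OL06G002065 −2.69. The aquaporin OL07G001095, not called between the sides, had −0.79.

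The value of OL08G000204 was 6.08 when +N split replicate 3 was left out and 11.61 when −N split replicate 1 was. The call of this gap was lost for some genes when a single library was left out. This held for OL01G000707 (+N replicates 1 and 3, +N split replicate 3, −N replicates 2 and 3), OL08G001191 (+N replicate 3, +N split replicate 3, −N split replicate 2, −N replicate 1) and OL03G001277 (8 of the 12 libraries). It held for OL06G000607, OL08G000204 and OL12G000529 with 9 of the 12 libraries, for OL08G000485 with 10 and for OL08G000484 with 11. With +N split replicate 3 and −N split replicate 1 both left out, the call was lost also for OL10G000304, OL02G002516 and OL06G001052.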

How the results depend on the processing

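Between the sides, no list median and none of the 95 genes changed sign under the alternatives run, which were not reported for the pyruvate kinase OL01G002472. Some gaps between split and uniform differences that were not called did, for example that of OL09G000502, which was −0.799 without +N replicate 2 and 0.5605 without +N replicate 1. Between the sides, 2455 genes were higher and 2380 lower at an adjusted p under 0.01, and 1554 and 761 with at least 2-fold. Between uniform pairs these counts were 1393 and 989, and 980 and 411. For the difference of differences they were 469 positive and 130 negative, and 567 and 169. DESeq2's Wald test called 1489 positive and 850 negative, and edgeR's likelihood ratio test 756 negative. With +N split replicate 3 and −N split replicate 1 both left out, an alternative chosen after seeing the data, 2438 genes were lower between the sides, 249 differences of differences were negative, and the median of amino acid transport was 0.3087 and that of organic acid metabolism 0.2745. With members from all tables, the medians were 2.735 for nitrate reduction, 0.924 for aminotransferases and 2.474 for low oxygen. Leaving out each library in turn gave 256 to 426 negative differences of differences, and medians of 1.246 to 1.413 for glycolysis, 0.3153 to 0.4403 for organic acid metabolism and 0.456 to 0.7973 for sucrose and trehalose. Between the sides, the higher count was 3027 to 3951 and the lower count 3099 to 4292 in those fits. Which direction held more genes between the sides depended on the setting: the higher genes outnumbered the lower ones with DESeq2 size factors (4117 to 3890), a 1 CPM filter (4119 to 3878), DESeq2's Wald test (4542 to 4291), the 6 split libraries alone (3933 to 3880), the exact test (4186 to 4004), a threshold of 0.01 and without those 2 libraries. The causes were not tested.

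The replicate numbers were not taken as pairs, since the labels do not say so. Deviations of same-numbered libraries of the 2 sides from their group means had correlations of −0.13, 0.104 and 0.079. These values cannot decide the pairing, since the deviations of a group cancel out for each gene and the correlations are tied to each other. Between +N and +N split libraries of the same number the correlations were 0.187, 0.0704 and 0.176. They were negative for all other combinations of these groups, which largely follows from the same cancelling and is no further evidence. With the replicate block, 4140 genes were higher and 4615 lower, and 7875 of the 8084 genes were called in the same direction. For uniform pairs the block gave 2774 and 2524, and for the difference of differences 1031 and 571.

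For the 95 genes between the sides, 2173 of 2185 alternative values kept their call and 12 lost it. For the difference of differences 1870 kept it, 102 lost it and 23 gained it. Precision is limited by 3 libraries per group. The part of depth, 40481909 to 45706258 reads in the split libraries, was not tested.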
